A study of Mus musculus with 2 samples.

Results

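The 9 genes described here carry the killing and signalling functions of cytotoxic lymphocytes. They are the granzymes Gzma, Gzmb and Gzmk, the pore-forming protein Prf1, the granule membrane protein Nkg7, the chemokines Ccl5 and Xcl1, the cytokine Ifng and the chemokine receptor Cxcr6. They were chosen by symbol from the 31058 features of the count matrices, and all 9 were found, once each. The matrices come from single-cell RNA sequencing of whole kidneys of female mice after rhabdomyolysis, a breakdown of skeletal muscle that injures the kidney tubule. One library came from mice labelled rabrhabdomyolysis + vehicle and the other from mice labelled rabrhabdomyolysis + CA3, so each group has 1 library. CA3 is known as a small-molecule YAP1 inhibitor, YAP1 being a transcriptional co-activator. Both groups were C57Bl/6 mice of 9 weeks with the genotype Pax8.rtTA;TetO.Cre;R26.FUCCI2aR. In that system a Pax8-driven transactivator, active in renal epithelium, switches on Cre under doxycycline, and Cre activates a fluorescent cell-cycle reporter. The reporter is therefore not directed at lymphocytes, and an uninjured kidney was not analysed here. The sources used here give neither the dose of CA3 nor the time after injury nor how many mice each library holds.

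Cytotoxic T cells and natural killer cells kill by releasing granules at the contact with a target cell. Perforin opens the target membrane, granzymes enter and cleave proteins inside it, and Nkg7 takes part in moving the granules to the cell surface. The same cells secrete interferon gamma, encoded by Ifng, which acts on the tubule, the endothelium and phagocytes, and they attract other leukocytes through Ccl5 and dendritic cells through Xcl1. T cells carry the CD3 complex (Cd3d, Cd3e, Cd3g) beside the T cell receptor, and natural killer cells and other innate lymphocytes do not. CD3 therefore separates the main producers of these transcripts.

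The 9 genes lie on 7 chromosomes of mm10. Gzma (chr13:113093825-113100981) and Gzmk (chr13:113171608-113225908) are neighbours on the minus strand, 70.6 kb apart. Gzmb (chr14:56258838-56262260) and Prf1 (chr10:61297833-61304680) lie elsewhere. Gzmk overlaps Esm1 on the opposite strand, Cxcr6 overlaps Fyco1 on the opposite strand, and 15.8% of the 31-base words at the 3′ end of Ifng also occur in Gm49751. Counts of Gzmk and Cxcr6 are less certain to that extent, because the sources used here do not give the strand setting of the counting. Gm49751 lies on the same strand as Ifng and is not among the counted features. What the shared words mean for the Ifng counts was not tested. The 250 bases before the RefSeq start (GRCm38.p6) are shown for the granzymes and Prf1, the granule genes whose detection in the same cells is described below. Capitals mark matches on either strand to core motifs of transcription factors that act in cytotoxic lymphocytes: the T-box core AGGTGT, the RUNX core TGTGGT, the ETS core GGAAGT and the AP-1 core TGANTCA. In the windows shown no match overlaps another.
Gzma (chr13:113100982-113101231, minus strand): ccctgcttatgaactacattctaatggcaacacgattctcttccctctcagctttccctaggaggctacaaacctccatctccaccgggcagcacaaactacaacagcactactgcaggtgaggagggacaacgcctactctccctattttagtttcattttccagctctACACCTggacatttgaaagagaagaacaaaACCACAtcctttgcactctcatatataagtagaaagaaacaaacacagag
Gzmb (chr14:56262335-56262584, minus strand): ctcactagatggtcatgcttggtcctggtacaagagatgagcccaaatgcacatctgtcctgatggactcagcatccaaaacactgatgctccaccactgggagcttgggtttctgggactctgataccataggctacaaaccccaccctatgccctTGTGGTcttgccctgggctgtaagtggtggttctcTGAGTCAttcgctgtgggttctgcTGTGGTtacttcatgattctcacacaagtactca
Gzmk (chr13:113180966-113181215, minus strand): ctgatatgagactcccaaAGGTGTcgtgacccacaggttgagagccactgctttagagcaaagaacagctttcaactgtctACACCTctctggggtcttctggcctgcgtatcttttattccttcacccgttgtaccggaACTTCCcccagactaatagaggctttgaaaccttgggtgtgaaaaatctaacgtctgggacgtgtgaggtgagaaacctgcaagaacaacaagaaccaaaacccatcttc
Prf1 (chr10:61297586-61297835, plus strand): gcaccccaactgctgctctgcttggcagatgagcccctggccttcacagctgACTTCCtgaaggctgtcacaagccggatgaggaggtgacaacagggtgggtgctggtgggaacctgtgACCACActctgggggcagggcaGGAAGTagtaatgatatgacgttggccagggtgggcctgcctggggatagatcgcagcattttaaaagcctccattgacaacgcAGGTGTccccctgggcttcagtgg
Gzma held a T-box match beginning 80 bases before the start and a RUNX match at 50 bases. Gzmb held RUNX matches at 93 and 34 bases and an AP-1 match at 58 bases before the start. Gzmk, although next to Gzma, held T-box matches at 232 and 169 bases and an ETS match at 110 bases, and no RUNX match in this window. Prf1 held the T-box, RUNX and ETS motifs, with the T-box match at 24 bases, the RUNX match at 130 bases and ETS matches at 198 and 108 bases. A RefSeq window was matched for 8 of the 9 genes, all but Ccl5. Over these 8 windows the RUNX core was present in 6, the T-box core in 4, the ETS core in 3 and the AP-1 core in 1. The same cores occurred in 14.0%, 11.8%, 19.7% and 6.75% of the 32851 RefSeq promoter windows of that length. A match is a description of the letters and was not tested as a binding site.

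The vehicle library held 1967 barcodes and 19592239 unique molecular identifiers (UMIs, each standing for 1 captured transcript), and the CA3 library 1724 barcodes and 17013222 UMIs. After removal of cells with fewer than 500 genes or more than 50% mitochondrial UMIs, 1767 and 1494 cells were kept. The libraries shared 1 barcode, which was in no lymphocyte. Lymphocytes were found by clustering the cells with the 9 genes left out. Of 21 clusters, 2 were T-like or NK-like by their marker genes, and clustering with the 9 genes included gave the same cells. The class held 51 of the vehicle cells (2.89%, exact binomial 95% interval 2.16 to 3.78) and 96 of the CA3 cells (6.43%, 5.24 to 7.79). All 18 T cell markers on the list had UMIs in it in both libraries, and its median depth was 5235 UMIs per cell with vehicle and 6082.5 with CA3. Proximal tubule markers reached 2983 and 2491 CPM in the class (CPM, counts per 1000000 non-mitochondrial UMIs summed over the cells of a group) against 25302 and 25831 in tubule cells. In the CD3-negative cells of the class, defined below, they reached 11011 CPM with vehicle, where 1 cell held 111 of 194 UMIs, and 5327 with CA3, where 1 cell held 163 of 173. In the CD3-positive cells they stood at 2441 and 2331. One vehicle cell of the class held 2674 of its 2682 UMIs of red cell genes. Their part in the values below was not tested. All intervals cover counting error only. With 1 library per group there is no replicate check and no test: treatment, animal, dissociation and library cannot be told apart. In whole-library values, fewer lymphocytes and less RNA per lymphocyte cannot be told apart either.

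The larger cluster, of 26 vehicle and 59 CA3 cells, was led by Ccl1, AW112010, Ms4a4b, Dusp2 and Trbc2. The smaller cluster, of 25 and 37 cells, was led by Il17a, Il7r, Trdc, Ltb and Icos, a set known from interleukin-17-producing innate-like T cells. A cell was counted as CD3-positive if it held at least 1 UMI of Cd3d, Cd3e or Cd3g. This gave 47 CD3-positive and 4 CD3-negative cells with vehicle, and 89 and 7 with CA3. The CD3-positive cells held a median of 12 and 15 CD3 UMIs, and only 1 of them, in the CA3 library, rested on a single CD3 UMI. The CD3-negative cells were not all of one kind. In the larger cluster there were 3 with vehicle and 5 with CA3, and all 8 held between 21 and 42 UMIs of the 18 natural killer receptor genes on the list. The activating receptor Ncr1 was found in 2 of the 3 and in all 5. The other CD3-negative cells, 1 and 2 in the smaller cluster, held between 0 and 2 such UMIs and no UMI of any of the 9 genes. Natural killer receptor UMIs were not limited to CD3-negative cells: single CD3-positive cells held up to 54 with vehicle and 61 with CA3. Their summed level was 755 and 1143 CPM in CD3-positive cells, against 5392 and 5143 in CD3-negative cells. Ncr1 was also found in 1 of 23 and 2 of 54 CD3-positive cells of the larger cluster. Transcripts of the T cell receptor constant genes Trac, Trbc1 or Trbc2 were found in 3 of the 4 and 6 of the 7 CD3-negative cells, at no more than 4 UMIs per cell, against medians of 12 and 16 in CD3-positive cells.

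The granzymes differed in where they were found. Gzma and Gzmb were in CD3-positive and CD3-negative cells of the larger cluster. Gzmk was in CD3-positive cells only, in either library. No UMI of Gzma, Gzmb or Gzmk was found in the 62 cells of the smaller cluster.

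Gzma encodes granzyme A, a tryptase. In CD3-negative cells it held 67, 28, 25 and 0 UMIs in the 4 vehicle cells, and 93, 85, 77, 46, 0, 0 and 0 in the 7 CA3 cells. In CD3-positive cells it was found in 4 of 47 vehicle cells (8.51%), with 58, 56, 2 and 1 UMIs, and in 9 of 89 CA3 cells (10.1%), with between 1 and 70. Gzma was thus an abundant transcript in few cells, and the positive cells of both kinds overlapped in UMIs per cell. Summed over cells, its level was 6811 CPM in CD3-negative against 448 in CD3-positive cells with vehicle, a ratio of 15.2 (95% counting interval 11.7 to 19.8). With CA3 the levels were 9269 and 439, a ratio of 21.1 (17.8 to 25.1). Within the larger cluster the ratios were 9.31 with vehicle and 18.6 with CA3.

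Gzmb encodes granzyme B, which cleaves caspases. The CD3-negative cells held 6, 2, 1 and 0 UMIs with vehicle and 7, 4, 4, 1, 0, 0 and 0 with CA3. In CD3-positive cells it was found in 4 vehicle cells with at most 4 UMIs and in 15 CA3 cells with up to 36. The CD3-negative level stood 16.7 times over the CD3-positive level with vehicle (5.71 to 49.6; 17 UMIs in all) and 2.30 times with CA3 (1.28 to 3.89). The CD3-negative levels were 511 and 493 CPM, and the CD3-positive levels 30.7 and 214. The gap between these ratios therefore lies in the CD3-positive cells.

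Gzmk encodes granzyme K, known from memory-like CD8 T cells. It was found in 8 CD3-positive vehicle cells (27 UMIs) and 21 CD3-positive CA3 cells (75 UMIs), all in the larger cluster. The CD3-negative cells held 0 UMIs in both libraries. At the limit of 3 UMIs that a count of 0 allows, the CD3-positive level was at least 1.41-fold higher with CA3. In the vehicle library the depth of 4 cells could not show a difference.

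Prf1 followed Gzma and Gzmb. It had 7, 5, 3 and 0 UMIs in the CD3-negative vehicle cells and 10, 9, 9, 4, 0, 0 and 0 in the CA3 cells, and no more than 3 in any CD3-positive cell. The CD3-negative level stood 24.7 times over the CD3-positive level with vehicle (10.1 to 64.0) and 18.9 times with CA3 (11.1 to 32.1). Every CD3-negative cell with Prf1 exceeded or equalled the highest CD3-positive cell. Unlike Gzma, Gzmb and Gzmk, Prf1 was also found in 3 CD3-positive CA3 cells of the smaller cluster, with 4 UMIs in all.

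**Figure D1:**
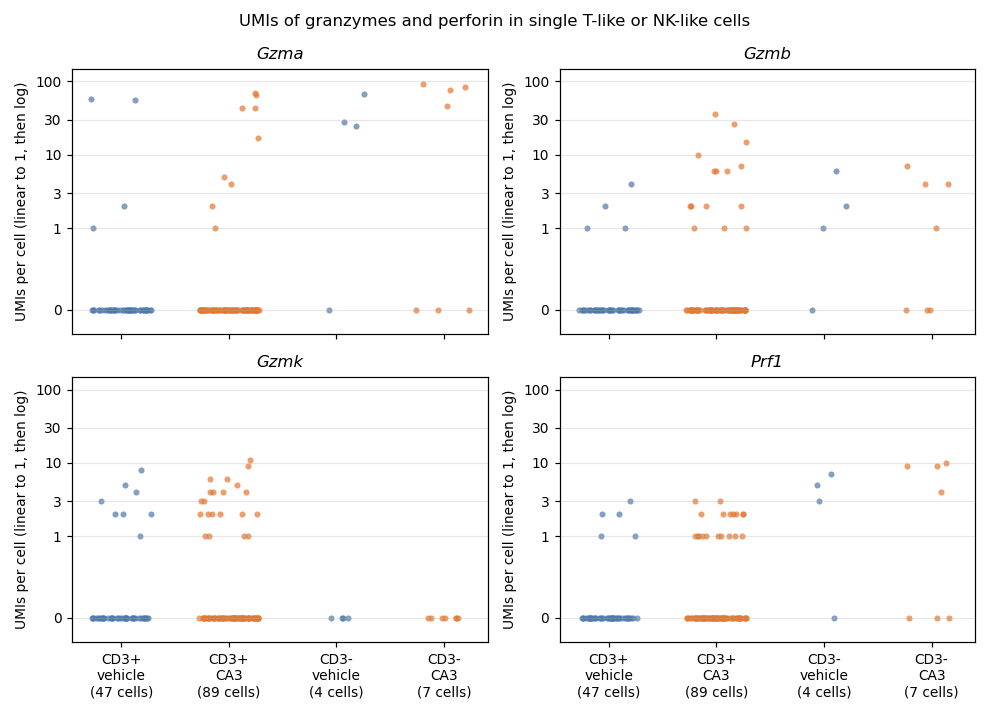
UMIs per cell of Gzma, Gzmb, Gzmk and Prf1 (vertical axis, linear from 0 to 1 and logarithmic above) in CD3-positive and CD3-negative T-like or NK-like cells of the vehicle library (blue) and the CA3 library (orange), 1 point per cell with sideways scatter. Gzma, Gzmb and Prf1 were present in 3 of 4 and 4 of 7 CD3-negative cells and Gzmk in none of them, while most CD3-positive cells sat at 0 for each gene.

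Nkg7 and Ccl5 were far more widespread than the granzymes. Nkg7 was found in 20 of 51 vehicle cells of the class (39.2%, 25.8 to 53.9) and 59 of 96 CA3 cells (61.5%, 51.0 to 71.2). In the larger cluster it was present in 15 of 23 and 47 of 54 CD3-positive cells and in all 8 CD3-negative cells. The CD3-negative cells held 24, 12, 7 and 0 UMIs with vehicle and 16, 13, 9, 8, 8, 0 and 0 with CA3. The level ratio of CD3-negative over CD3-positive cells was 3.96 with vehicle (2.76 to 5.57) and 1.65 with CA3 (1.23 to 2.19), smaller than for Gzma and Prf1. In the smaller cluster only 5 UMIs in 2 vehicle cells and 23 UMIs in 7 CA3 cells were found.

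Ccl5, a chemokine that attracts T cells and monocytes, was the most abundant of the 9 genes. Its level in the class was 3812 CPM with vehicle and 4535 with CA3. The 3′ libraries count 1 end per transcript, so levels of different genes can be compared without their length. It was found in 16 vehicle cells (31.4%, 19.1 to 45.9) and 58 CA3 cells (60.4%, 49.9 to 70.3), with up to 219 and 228 UMIs in a cell. The CD3-negative cells held 149, 26, 25 and 0 UMIs with vehicle and 141, 109, 78, 47, 5, 0 and 0 with CA3. The CD3-negative level stood 3.44 times over the CD3-positive level with vehicle (2.93 to 4.01) and 2.83 times with CA3 (2.54 to 3.16). In the smaller cluster Ccl5 had 0 UMIs with vehicle and 98 UMIs in 5 cells with CA3, of which 1 cell held 64.

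Ifng and Xcl1 showed no CD3 split common to both libraries. Ifng was found in 10 CD3-positive and 2 CD3-negative vehicle cells, and in 34 and 3 CA3 cells, all in the larger cluster. Its ratio of CD3-negative over CD3-positive level was 1.31 with vehicle (0.257 to 4.16) and 0.911 with CA3 (0.289 to 2.20), intervals too wide to show a difference. Xcl1, the ligand of the dendritic cell receptor Xcr1, was found in 11 vehicle cells (21.6%) and 33 CA3 cells (34.4%), again only in the larger cluster. Its ratio was 0.426 with vehicle (0.115 to 1.12) and 1.38 with CA3 (0.806 to 2.24). Within the larger cluster it was 0.261 with vehicle (0.070 to 0.684), an interval below 1. With CA3 it was 1.22 there (0.709 to 1.97), an interval that includes 1. A single CD3-positive vehicle cell held 79 of the 143 Xcl1 UMIs of its class.

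Cxcr6, the receptor of Cxcl16 and a mark of tissue-resident lymphocytes, showed the opposite arrangement over the class. It was found in 25 CD3-positive vehicle cells and 49 CD3-positive CA3 cells, and in 1 of the 11 CD3-negative cells, with 1 UMI. The CD3-positive level was at least 2.07-fold higher with vehicle, where the CD3-negative cells held 0 UMIs. With CA3 the ratio of CD3-negative over CD3-positive level was 0.0871 (0.002 to 0.491), from that 1 UMI. Of the 92 vehicle UMIs, 66 lay in the smaller cluster. Within the larger cluster the vehicle CD3-positive cells held 26 UMIs. Against the limit of 3 UMIs in the CD3-negative cells this could not show a difference. With CA3 the ratio within the larger cluster was 0.145 (0.00365 to 0.828). Cxcr6 was also the only one of the 9 with UMIs in many cells of the smaller cluster: 13 of 24 CD3-positive vehicle cells and 13 of 35 CD3-positive CA3 cells. Its level in the larger over the smaller cluster was 0.390 with vehicle (0.238 to 0.623) and 0.795 with CA3 (0.599 to 1.06). The other genes stood far higher in the larger cluster, for example Nkg7 by 39.4 times with vehicle (16.6 to 123) and 18.7 times with CA3 (12.3 to 29.7), and Gzma by at least 78.3-fold and at least 130-fold.

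**Figure D2:**
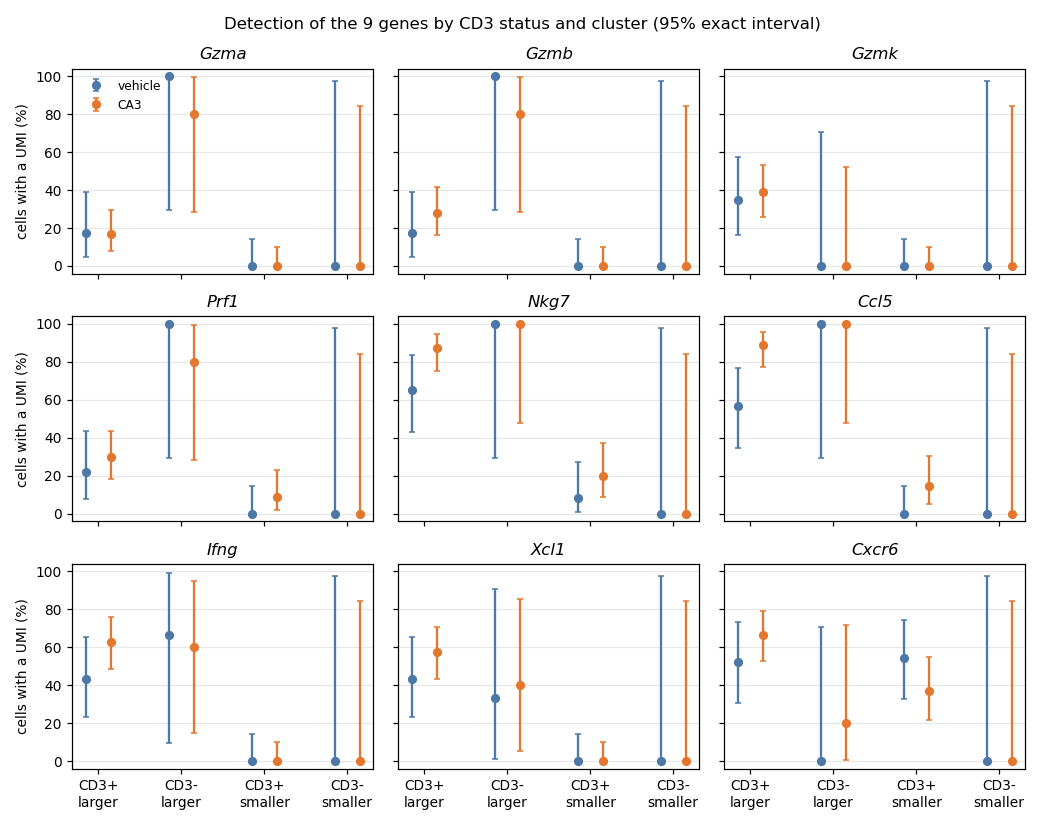
Share of cells with at least 1 UMI (vertical axis, percent) of each gene in CD3-positive and CD3-negative cells of the larger and the smaller T-like or NK-like cluster, vehicle in blue and CA3 in orange, with exact binomial 95% intervals. Gzma, Gzmb and Prf1 were highest in the CD3-negative cells of the larger cluster, whose intervals are wide because they are 3 and 5 cells, and Cxcr6 was the only gene present in a large share of the CD3-positive cells of the smaller cluster.

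Read against all genes, a ratio past 1.5 is common between groups this small. Of the 2349 genes with at least 20 UMIs in the vehicle lymphocytes, 26.6% were past 1.5 times higher in CD3-negative cells and 37.3% past it lower. Among the 8 of the 9 genes that reached 20 UMIs there, 4 were higher (Gzma, Prf1, Nkg7 and Ccl5) and 3 were lower (Xcl1, and Gzmk and Cxcr6 with 0 UMIs in the CD3-negative cells). With counts of 0 set to the limit of 3 UMIs, 2 were lower, as Gzmk no longer was. With CA3 the background was 27% higher and 33.1% lower over 4473 genes, and of the 9 genes 5 were higher, adding Gzmb, and 2 were lower (Gzmk and Cxcr6). At that limit 1 was lower, Cxcr6. A cell rule that also counted T cell receptor constant genes left 1 CD3-negative cell per library. It gave vehicle ratios of 7.93 for Gzma, 2.10 for Nkg7 and 1.49 for Ccl5, the last no longer past 1.5, and CA3 ratios of 26.7 for Gzma, 3.47 for Nkg7 and 1.20 for Gzmb, also no longer past it. The median ratio of the tested members was 2.12 with vehicle and 1.65 with CA3, or 2.38 and 1.65 with counts of 0 set to 3 UMIs, against 0.855 and 0.921 over all genes.

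The CD3-positive cells were split further by the coreceptor genes and by the gamma and delta T cell receptor genes, a split chosen after the values were seen. Cells named by gamma-delta receptor genes held no Cd8 or Cd4 UMI. They held at least 2 UMIs of Trdc, the delta constant gene, and the gamma constant genes together. Cells with Cd8a or Cd8b1 and no Cd4 numbered 13 with vehicle and 30 with CA3. They held all 117 Gzma UMIs, all 27 Gzmk UMIs and all 9 Prf1 UMIs of the CD3-positive vehicle cells. With CA3 they held 202 of 252 for Gzma, 61 of 75 for Gzmk and 20 of 30 for Prf1. Nkg7 was found in 84.6% and 93.3% of these Cd8 cells. Their Ccl5 level was 11265 and 8631 CPM, against 11352 and 11702 in the CD3-negative cells. Of the Gzmb UMIs they held 7 of 8 with vehicle and 72 of 123 with CA3. A Cd8 cell with 12 Trdc UMIs held 15 of the 72. Of the other CA3 Gzmb UMIs, 39 lay in the cells named by gamma-delta receptor genes and 10 in 1 Cd4 cell. Gzma, Gzmk and Prf1 of CD3-positive cells thus came mostly from cells with Cd8 transcripts, and Gzmb with CA3 less so.

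Cells with Cd4 transcripts and no Cd8, 10 with vehicle and 22 with CA3, held no Gzma and no Gzmk in either library. Their Gzmb was 0 UMIs with vehicle and 10 UMIs in 1 cell with CA3. They did hold Ifng, 4 and 27 UMIs, and Cxcr6, 13 and 31 UMIs. Cells with gamma-delta receptor genes, 11 and 21, were marked by Cxcr6, found in 9 of 11 (81.8%) and 15 of 21 (71.4%), at 947 and 778 CPM. With vehicle these cells held no UMI of Gzma, Gzmb, Gzmk, Prf1, Nkg7, Ccl5 or Xcl1. With CA3 they held 48 Gzma UMIs in 3 cells, 39 Gzmb, 86 Nkg7, 154 Ccl5 and 115 Xcl1 UMIs. The subset lay in different clusters: 1 of the 11 vehicle cells and 5 of the 21 CA3 cells were in the larger cluster. Those 5 cells held all of these Gzma, Gzmb, Nkg7 and Xcl1 UMIs and 149 of the 154 Ccl5 UMIs. One of them, a cell of 18488 UMIs, with 24 UMIs of the delta constant gene Trdc, held 43 of the Gzma, 36 of the Gzmb and 65 of the Xcl1 UMIs. It held 30 of the Nkg7 and 20 of the Ccl5 UMIs. The difference between the libraries in this subset thus rests largely on 1 cell for Gzma, Gzmb and Xcl1 and less so for Nkg7 and Ccl5. In the larger cluster, the CA3 cells of the subset with 6805, 4197 and 7211 UMIs held 0 Trdc UMIs and 3, 7 and 5 Trac UMIs. Some vehicle cells of the subset likewise held Trac and no Trdc. Whether such cells carry the gamma-delta receptor was not tested.

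The 9 genes were detected in the same cells to very different degrees. All 20 cells with Gzma, all 26 with Gzmb and all 29 with Gzmk also held Nkg7 and Ccl5. Of the 31 cells with Prf1, 29 held Nkg7 and 29 held Ccl5. Nkg7 was in 79 cells and Ccl5 in 74, with 69 in common. Both thus reached beyond the 12 vehicle and 31 CA3 cells with a UMI of Gzma, Gzmb or Gzmk, called granzyme-positive below. The log levels of Nkg7 and Ccl5 had a correlation across cells of 0.886 over the 51 vehicle cells and 0.888 over the 96 CA3 cells, the highest of the member pairs by the mean of both libraries. Gzma and Gzmb reached 0.938 with vehicle and 0.578 with CA3. Cells of 1 library share its depth and free RNA, so the correlations are descriptions.

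Granzyme and perforin transcripts, the pair needed for granule killing, were found together in 7 of the 12 granzyme-positive vehicle cells (58.3%, 27.7 to 84.8) and 17 of the 31 granzyme-positive CA3 cells (54.8%, 36.03 to 72.68). Thinned to 2000 UMIs per cell, which left no lymphocyte out, the shares were 36.4% and 40.0%. In CD3-negative cells all 3 and all 4 granzyme-positive cells held Prf1. In CD3-positive cells 4 of 9 and 13 of 27 did (44.4% and 48.1%). As Prf1 had no more than 3 UMIs in a CD3-positive cell, a cell with 0 may hold transcripts that were not captured.

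Pairs of granzymes differed between CD3-positive and CD3-negative cells. Gzma and Gzmb were found together in 16 cells, including all 7 CD3-negative cells with Gzma. Those 7 also held Prf1 and none held Gzmk. Gzma and Gzmk were found together in 11 cells, all CD3-positive, which is 84.6% of the 13 CD3-positive cells with Gzma. All 3 granzymes were found in 3 vehicle and 4 CA3 cells, all CD3-positive. Ifng and Xcl1 shared 28 cells, 57.1% of the 49 with Ifng and 63.6% of the 44 with Xcl1. Cxcr6 was in 75 cells, of which 43 held Nkg7 and 9 held Gzma. Its log level ran slightly against Gzma and Prf1 across cells, with mean correlations over the 2 libraries of -0.14 and -0.17.

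The number of the 9 genes found per cell had a median of 1 with vehicle and 3 with CA3, and the same medians after thinning to 2000 UMIs per cell. In the larger cluster the median of CD3-positive cells was 4 and 5, and 3 in both libraries after thinning to 2000 UMIs. In the smaller cluster it was 1 and 1. None of the 9 was found in 12 vehicle and 18 CA3 cells, and exactly 1 in 20 and 16. The highest number in a cell was 7 with vehicle and 9 with CA3, the latter a CD3-positive cell with Cd8 transcripts and 26 Gzmb UMIs. The CA3 lymphocytes included a larger share of the larger cluster, 61.5% (51.0 to 71.2) against 51.0% (36.6 to 65.2), and were deeper.

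**Figure D3:**
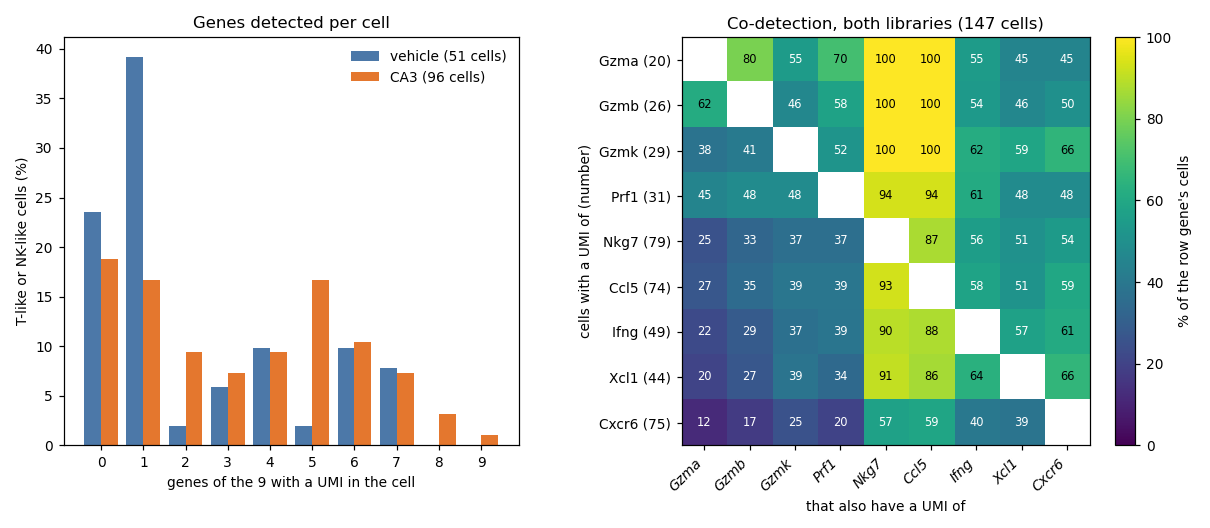
Left, percent of T-like or NK-like cells (vertical axis) by the number of the 9 genes with a UMI in the cell (horizontal axis), for 51 vehicle and 96 CA3 cells. Right, for the cells with a UMI of the gene in each row (number in brackets, both libraries), the percent that also had a UMI of the gene in each column: the rows of Gzma, Gzmb and Gzmk read 100% for Nkg7 and Ccl5, and the Cxcr6 row reads lowest for the granzymes and Prf1.

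Other genes that varied with the members were found by the correlation of log levels across the cells of both clusters together. It was averaged over both libraries, among the 5558 genes with enough UMIs. The levels of Gzma ran most closely with Plek (0.676), Klrd1 (0.642) and Il18rap (0.607). Those of Nkg7 ran with Klrd1 (0.655), Fasl (0.617) and Ms4a4b (0.607), and those of Ccl5 with Klrd1 (0.669) and Ctsd (0.585). Klrd1 encodes CD94, a partner of the NKG2 receptors of natural killer and CD8 T cells, and Fasl a death ligand. Xcl1 had weaker partners, the highest being Tnfrsf18 (0.457), AW112010 (0.398) and Cd7 (0.391).

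Outside the lymphocytes 8 of the 9 genes had few UMIs, and Ccl5 had 154 of its 1216 vehicle UMIs and 109 of its 2860 CA3 UMIs there. Among 1596 tubule cells of the vehicle library, 32 (2.01%, 1.38 to 2.82) held any UMI of the 9, and among 1288 tubule cells of the CA3 library 79 did (6.13%, 4.89 to 7.59). The sums were 37 and 135 UMIs, of which Ccl5 gave 26 and 108. Of these cells 28 and 74 held a single such UMI, and 1 in each library held a second of the 9 genes. Ifng had 0 UMIs in tubule cells of both libraries, which limits the share of cells with a UMI to 0.231% and 0.286% by the exact interval. The other counts were 2 and 8 UMIs for Gzma, 1 and 1 for Gzmb, 0 and 2 for Gzmk, 0 and 3 for Prf1, 3 and 8 for Nkg7, 1 and 2 for Xcl1, and 4 and 3 for Cxcr6. Tubule cells were deeper than lymphocytes, with medians of 7430 and 8026 UMIs.

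The stray level can be set against other lymphocyte transcripts that tubule cells should lack. In the vehicle library the tubule level of Gzma was 0.0186% of its lymphocyte level, that of Nkg7 0.0323% and that of Ccl5 0.0538% (0.0350 to 0.0793). Cd3d, Cd3e and Cd3g stood at 0.0110%, 0.0550% and 0.0221%, and Trac at 0.155%. In the CA3 library Gzma was at 0.0823%, Nkg7 at 0.0722% and Ccl5 at 0.223% (0.183 to 0.271), with the CD3 genes at 0.154%, 0.0933% and 0.132% and Trac at 0.118%. One CA3 tubule-class cell held 8 of the 13 Cd3d, 4 of the 5 Cd3e and 8 of the 16 Cd3g UMIs. Counting only cells with 1 or 2 UMIs of the gene, the CA3 values were 0.0595%, 0.0187% and 0.0661%. Trbc2, Ms4a4b, Ctsw and Ltb stood at 0.0306%, 0.0203%, 0.118% and 0.0350% with vehicle and at 0.0918%, 0.0519%, 0.0813% and 0.112% with CA3. Over all tubule cells Ccl5 with CA3 stood above the CD3 genes and Trac of its library. Prf1 did too at 0.275% (0.0553 to 0.843) and Gzmk stood at 0.152% (0.0180 to 0.568), from 3 and 2 UMIs. In CA3 cells with 1 or 2 UMIs of the gene, Ccl5 was at 0.106% (0.0786 to 0.140). That was above the CD3 genes and not above Trac (0.118%) or Ltb (0.112%). No common direction held between the libraries: the percentage was higher with CA3 for Gzma, Gzmk, Prf1, Nkg7, Ccl5 and Xcl1 and lower for Gzmb (0.129% and 0.0409%) and Cxcr6 (0.0956% and 0.0837%), all but Ccl5 from 8 UMIs or fewer in either library. Among tubule cells with no UMI of the T and NK markers, 25 of 1341 (1.86%) and 63 of 1027 (6.13%) still held one of the 9 genes.

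The excess of Ccl5 in CA3 tubule cells lay partly in 2 cells and partly in cells with a single UMI. A Ccl5 UMI was found in 22 of 1596 vehicle tubule cells (1.38%, 0.866 to 2.08) and 53 of 1288 with CA3 (4.11%, 3.10 to 5.35). Of the 53 cells, 49 held 1 UMI. Of the 108 Ccl5 UMIs with CA3, 31 and 23 came from 2 cells of the thick ascending limb-like class. These held 784 and 423 UMIs of that class's own markers, no CD3 UMI and no UMI of the other 8 genes. With only the cells of 1 or 2 UMIs, the tubule level of Ccl5 was 0.106% of the lymphocyte level with CA3 and 0.0476% with vehicle. In the proximal tubule-like cells alone Ccl5 had 22 UMIs in 18 vehicle cells and 46 UMIs in 43 CA3 cells, levels of 2.09 and 5.01 CPM and a ratio of 2.39. There the background past 1.5 times higher was 3.66% of 11688 genes, and past it lower 3.52%, and none of the other 8 genes reached 20 UMIs. In the endothelial-like class Ccl5 had 123 UMIs with vehicle (119 CPM) and 1 with CA3. The 123 included cells of 63, 38, 11 and 9 UMIs, with no CD3 UMI and no UMI of the other 8 genes. Those 4 cells held 0 or 1 UMI of the endothelial markers, and the first pair were of 45622 and 51490 UMIs with 178 and 38 UMIs of proximal tubule markers, so the class name does not describe them well. Whether they are doublets was not tested. Over that class 14.4% of genes were past 1.5 times lower with CA3.

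**Figure D4:**
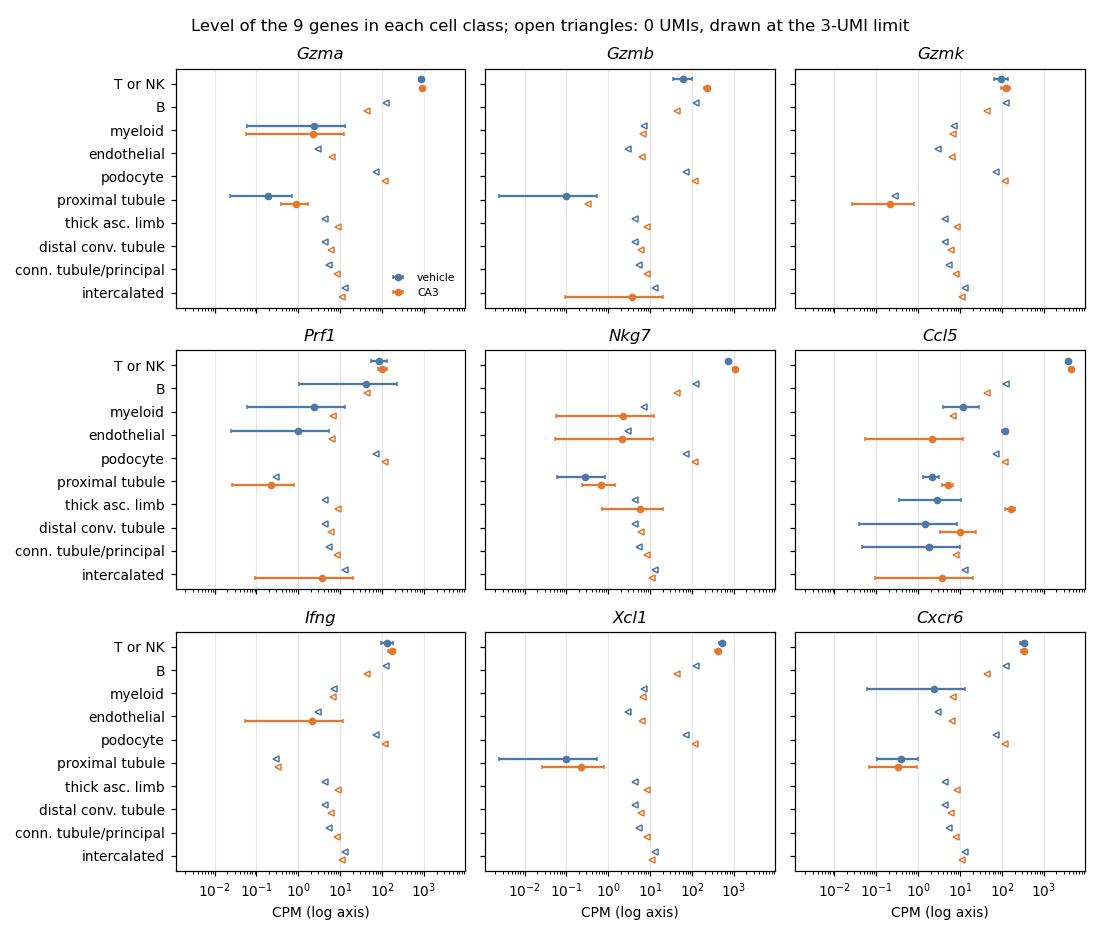
Level of each gene (horizontal axis, CPM, log axis) in the cell classes of the vehicle (blue) and CA3 (orange) libraries, with exact Poisson 95% intervals; open triangles mark classes with 0 UMIs, drawn at the level of 3 UMIs. All 9 genes were highest in the T or NK class, and Ccl5 was the only one with levels above 100 CPM elsewhere, in the thick ascending limb class with CA3 and the endothelial class with vehicle.

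Between the libraries, all 9 genes were higher with CA3 over all kept cells, by ratios from 2.04 for Xcl1 to 9.16 for Gzmb, where 6.88% of 13967 genes were past 1.5 times higher and 7.05% past it lower. The UMIs were, for example, 240 and 562 for Gzma, 207 and 641 for Nkg7, 37 and 103 for Ifng and 97 and 207 for Cxcr6. The share of lymphocytes among kept cells was itself 2.23 times higher with CA3 (1.57 to 3.19). Within the T-like or NK-like class the median log2 ratio of the 9 was 0.25 (1.19 times), against 0.0048 over 5672 genes. There, 1 of the 9 was past 1.5 times higher, where the background was 13.7%, and 0 were past it lower, where the background was 12%. The whole-library ratios thus stood beside a 2.23 times higher share of lymphocytes, with the ratio of Gzmb the highest. That share counts cells, while the gene ratios are per UMI. Of the non-mitochondrial UMIs the class held 278568 of 14467412 with vehicle and 606583 of 12290247 with CA3. Whether the share of lymphocytes accounts for the gene ratios was not tested.

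The gene past that threshold was Gzmb. Its level in the class was 61.0 CPM with vehicle (17 UMIs in 7 cells) and 229 with CA3 (139 UMIs in 19 cells), a ratio of 3.75 (2.26 to 6.63). In CD3-positive cells the ratio was 6.99 (3.44 to 16.5), from 8 and 123 UMIs. In CD3-negative cells it was 0.964 (0.401 to 2.48), from 9 and 16 UMIs. The share of class cells with a Gzmb UMI was 13.7% and 19.8%, and 7.84% and 15.6% after thinning. The UMIs were concentrated in few cells of both libraries: the highest CD3-positive CA3 cells held 36, 26, 15 and 10 UMIs and the highest CD3-positive vehicle cell 4. Leaving out the 3 cells with most Gzmb UMIs in each library gave a ratio of 5.66, tilted toward CA3 because those cells hold 70.6% of the vehicle UMIs and 55.4% of the CA3 UMIs, and the larger cluster alone gave 3.22 (1.94 to 5.68).

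Nkg7 and Ccl5 were modestly higher with CA3 in the class, and this moved with the mix of clusters. The ratio of Nkg7 was 1.42 (1.21 to 1.67), from 732 and 1040 CPM, and 1.20 (1.02 to 1.42) in the larger cluster alone. The ratio of Ccl5 was 1.19 (1.11 to 1.28) in the class and 0.984 (0.916 to 1.06) in the larger cluster. The share of class cells with Ccl5 was nevertheless 31.4% against 60.4%, and 29.4% against 55.2% at 2000 UMIs per cell. In the larger cluster 13 of 23 CD3-positive vehicle cells and 48 of 54 CD3-positive CA3 cells held it. More cells with a Ccl5 UMI thus stood beside an equal summed level in that cluster, as the vehicle total came from fewer, higher cells.

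The other 6 genes did not pass 1.5 times in the class. Gzma stood at 851 and 912 CPM, a ratio of 1.07 (0.919 to 1.25). Gzmk had a ratio of 1.28 (0.812 to 2.06), Prf1 of 1.19 (0.730 to 1.99) and Ifng of 1.27 (0.861 to 1.90), with intervals that include 1. Cxcr6 was at 1.02 (0.792 to 1.32) in the class and at 1.64 (1.06 to 2.62) in the larger cluster. Xcl1 was the only one lower with CA3, at 513 and 409 CPM and a ratio of 0.796 (0.646 to 0.985). That direction rested on few cells: without the 3 cells with most Xcl1 UMIs in each library the ratio was 2.04, and the share of cells with Xcl1 was 21.6% with vehicle and 34.4% with CA3. Without the 3 cells with most UMIs of the gene, Gzma had a ratio of 2.34, Gzmk of 2.23 and Ifng of 2.10. Leaving out 3 cells takes a larger part of the fewer vehicle cells, so these ratios are tilted toward CA3 by construction.

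In the CD3-positive cells, 3 of the 9 were past 1.5 times higher with CA3, Gzmb, Prf1 (1.52, 0.701 to 3.63) and Nkg7 (1.63, 1.37 to 1.95), where the background was 13.8% higher and 11.9% lower. The larger cluster gave 23 of the 47 vehicle and 54 of the 89 CA3 cells. Among its CD3-positive cells alone Prf1 had a ratio of 1.09 and Nkg7 of 1.34, both short of 1.5, while Xcl1 was past it lower at 0.625 (0.504 to 0.777), Cxcr6 past it higher at 1.55 (1.004 to 2.49) and Gzmb at 5.80. In the larger cluster 2 were, Gzmb and Cxcr6, where the background was 17.1%. In the CD3-negative cells, 4 against 7, Gzma had a ratio of 1.36 (1.098 to 1.70), Nkg7 of 0.681 (0.448 to 1.04) and Ccl5 of 1.03. Xcl1, with 4 and 18 UMIs, had a ratio of 2.44 (0.804 to 9.92), opposite to its direction in the class. Gzmb was the only gene past the threshold in the class, in the CD3-positive cells and in the larger cluster alike.

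**Figure D5:**
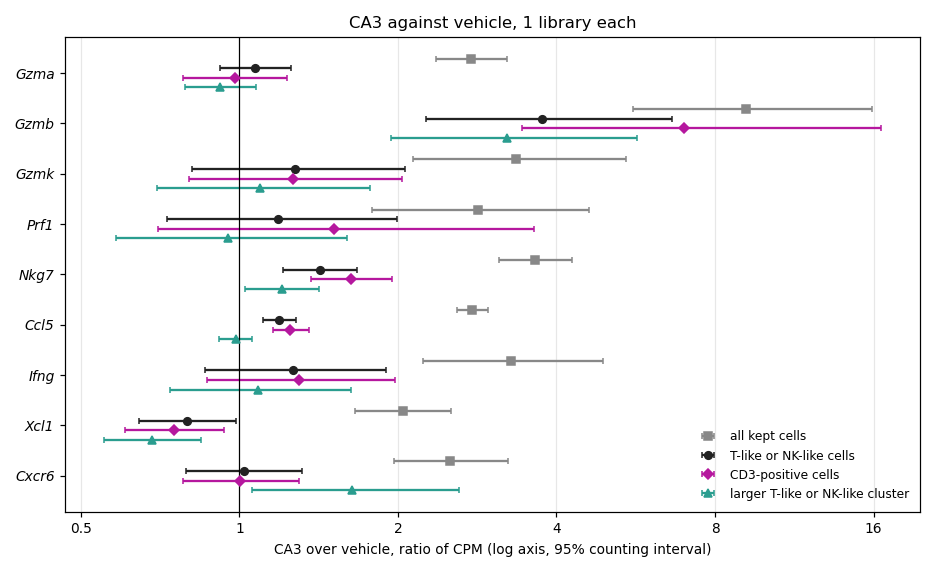
Ratio of each gene's level with CA3 over vehicle (horizontal axis, log axis, with 95% counting intervals) over all kept cells (grey squares), the T-like or NK-like class (black circles), its CD3-positive cells (purple diamonds) and its larger cluster (green triangles), 1 library per group. Over all kept cells every ratio lay between 2.04 and 9.16, and within the class all but Gzmb (3.75) lay between 0.796 and 1.42.

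Other genes of the cytotoxic program, from lists chosen with earlier results of these data known, were read in the class in the same way, where 13.7% of all genes were past 1.5 times higher and 12% lower. The genes with most UMIs of a list are named, and those past 1.5 times beyond them, namely Cd63, Stx11, Vamp7, Eomes, Tbx21, Tnfrsf9, Lef1 and Klra7, were singled out after their values were seen. Of the 7 other granzymes none reached 20 UMIs: Gzmm had 5 and 13, Gzmc 0 and 10 (in 1 cell), and the other 5 had 0. Of 14 genes of granule storage and release, 2 were past 1.5 times higher and 2 lower, with a median ratio of 1.02. The higher ones were Ctsw and Vamp7 (8 and 34 UMIs, 1.95) and the lower ones Cd63 (50 and 65, 0.597) and Stx11 (10 and 14, 0.643). The granule proteoglycan Srgn had 299 and 698 UMIs (1.07), and Ctsw, a protease of cytotoxic cells, had 56 and 210 (1.72, 1.28 to 2.36). The granzyme B inhibitor Serpinb9 had 24 and 47 (0.899). Of 6 death ligand genes 3 were tested and 1 was higher, Tnf, with 5 and 22 UMIs (2.02, 0.747 to 6.83). The death ligand Fasl, with 22 and 58 UMIs, stood at 1.21. Of 9 tested effector transcription factor genes 2 were higher and 0 lower: Eomes, with 10 and 47 UMIs (2.16, 1.08 to 4.79), and Tbx21, with 7 and 25 (1.64, 0.690 to 4.49). Both encode T-box factors of cytotoxic lymphocytes.

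Natural killer receptor genes were the list with most genes past the threshold. Of 13 tested, 6 were higher and 2 lower, with a median ratio of 1.47, against 13.7% and 12% of all genes. Klrk1, encoding the activating receptor NKG2D, had 46 and 179 UMIs (1.79, 1.29 to 2.53), and Klrd1 had 36 and 127 (1.62, 1.11 to 2.42). Klra7, an inhibitory Ly49 receptor gene, had 22 and 20 (0.417, 0.216 to 0.802). This rests on few cells: 8 of the vehicle UMIs lay in 1 CD3-positive cell and 14 in 2 CD3-negative cells. The 20 CA3 UMIs lay in 2 CD3-positive cells. Of 6 tested activation and exhaustion genes, 0 were higher and 3 lower. These were Icos (135 and 148 UMIs, 0.503), Nr4a1 (81 and 84, 0.476), an early gene of receptor stimulation, and Tnfrsf9 (17 and 11, 0.297). Of 8 naive and memory genes 1 was higher, Lef1 (1.56), and 2 were lower, Il7r (0.614) and Tcf7 (0.476). Il7r was also among the genes that led the smaller cluster, whose share of the class was 49.0% with vehicle and 38.5% with CA3. Of the 3 CD3 genes, both CD8 genes, Cd4 and 6 genes of interferon gamma reception none was past 1.5 times. Of 10 tested gamma-delta T cell genes 3 were higher, of 4 regulatory T cell genes 2 were higher, and of 7 tested other chemokine and receptor genes 1 was higher and 1 lower.

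Partners of Xcl1, Cxcr6 and Ifng were found in other cells too. Xcr1, the receptor of Xcl1, had 22 and 9 UMIs in the myeloid-like cells. Cxcl16, the ligand of Cxcr6, was widespread in proximal tubule-like cells, with 657 and 697 UMIs, at 62.6 and 76.0 CPM (1.21, 1.09 to 1.35). Ifngr1, a chain of the interferon gamma receptor, stood at 302 and 384 CPM in the lymphocytes, 260 and 244 in the myeloid-like cells and 17.7 and 15.3 in the proximal tubule-like cells. Of the tested genes known to be induced by interferon gamma, 4 of 10 were past 1.5 times higher and 1 lower in the lymphocytes. In proximal tubule-like cells 4 of 11 were higher and 0 lower, where 3.66% and 3.52% of all genes were. The other 7 were within 1.5 times, and the median ratio of the 11 was 1.08. Among the higher ones was Iigp1 with 24 and 153 UMIs (7.30, 4.73 to 11.7), found in 0.420% and 1.98% of the cells. In endothelial-like cells 1 of 12 was higher and 6 were lower, where 10.6% and 14.4% of all genes were. In myeloid-like cells 2 of 10 were higher and 3 lower, where 15.9% and 14.2% of all genes were. Differences between classes were not tested, and type I interferon induces many of the same genes.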

How the data were processed

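Droplet-based 3′ single-cell RNA libraries were made from whole kidneys, 1 library per treatment group. Per the submitters' processing notes the authors used Cell Ranger 3.0.1 and mm10; no other setting was given in the sources used here. The deposited matrices hold raw UMI counts per gene and barcode. Cells were kept from 500 genes upward, with mitochondrial genes giving up to 50% of their UMIs. Counts were scaled to 10000 per cell and log-transformed, and 2000 variable genes without the 9 members gave 30 principal components, 15 neighbours and Leiden clusters at resolution 1 (scanpy 1.11.5, numpy 2.4.6, scipy 1.17.1). Clusters were named from 18 marker lists, of which the red cell list was skipped, by the highest mean log2 fold where that was at least 1. Every other cluster was named proximal tubule, as the most abundant class is its own background. All proximal tubule-like clusters got their name by this default. Their mean log2 folds of the proximal tubule markers lay between -0.905 and 0.235. No doublet caller was run; leaving out cells over 2 times their class's median UMI count was an alternative.

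Levels are CPM, the summed UMIs of a gene per 1000000 non-mitochondrial UMIs of a group of cells. Shares carry exact Clopper-Pearson, levels exact Poisson and ratios conditional binomial 95% intervals. No p-value was computed, as each group has 1 library. Over all genes, those with at least 20 UMIs in the compared cells were counted as past 1.5 times; a count of 0 was set to 3 UMIs for bounds. The ratio script was checked on simulated counts. All 9 members are named; of each of 19 gene lists up to 4 genes with most UMIs in the class are named, and the 3 genes most correlated with Gzma, Nkg7, Ccl5 and Xcl1, among genes found in at least 10% of cells. One gene that these rules would name is not reported here. The members and lists were chosen with earlier results of these data known. Gene positions come from GENCODE vM21, promoter windows from RefSeq. The alternatives tried were stricter or no cell filters, thinning to 2000 UMIs, other CD3 rules, other clusterings, other denominators and leaving out the highest cells.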

Additional observations from a re-analysis of the deposited data

How the results depend on the processing

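The comparison of the 2 libraries has no replicate check, and the CD3-negative values rest on 4 and 7 cells, so depth limits Gzmk, Ifng and Cxcr6 there. No paired analysis was possible because each group has 1 library. The larger changes under alternative settings follow, and apart from what their construction shows the cause was not tested. A class defined by marker UMIs in place of clusters added 2 vehicle and 11 CA3 cells from myeloid clusters, all CD3-negative, with 0 and 2 UMIs of the 9 genes. With CA3 it left 2 of the 9 genes past 1.5 times higher in CD3-negative cells (5 by clusters) and turned the ratios of Gzmb to 0.526, Nkg7 to 0.386 and Ccl5 to 0.648, and it lowered Gzma from 21.1 to 4.85 and Prf1 from 18.9 to 4.32. With vehicle it lowered Gzma from 15.2 to 8.20, Gzmb from 16.7 to 9.00, Prf1 from 24.7 to 13.3, Nkg7 from 3.96 to 2.14 and Ccl5 from 3.44 to 1.86. Adding the T cell receptor constant genes to the CD3 rule left 1 CD3-negative cell in each library, with vehicle ratios of 7.93 for Gzma, 7.89 for Gzmb, 15.6 for Prf1, 2.10 for Nkg7 and 1.49 for Ccl5, and CA3 ratios of 3.47 for Nkg7 and 1.20 for Gzmb. Thinning gave vehicle ratios of 9.70 for Gzma, 72.8 for Prf1, 2.35 for Nkg7 and 2.65 for Ccl5. After thinning only 1 of the 47 CD3-positive vehicle cells held Prf1, so the size of its ratio rests on that cell. The count of genes past 1.5 times higher with CA3 in the class, 1 in the main analysis, was 2 after thinning, 8 without the 3 cells with most UMIs of each gene, and 2 in the larger cluster alone, an alternative chosen after seeing the data. Without those cells the median log2 ratio was 1.03 (main 0.25). The summed stray level in CA3 tubule cells, 12.7 CPM, was 9.55 with the stricter cell filter of 1000 genes and 25% mitochondrial UMIs, 6.98 without tubule cells with 2 or more UMIs of the 9 genes and 7.81 without those with 2 or more T or NK marker UMIs. Over all alternatives the CA3 over vehicle ratio of Gzmb ranged from 2.89 to 5.66 and that of Xcl1 from 0.589 to 2.04.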
